A study of Dendrobium nobile with 12 samples.

Results

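Messenger RNA levels in buds were set against those in petals of the orchid Dendrobium nobile, with 2 libraries of each. These 4 libraries (bud 1, bud 2, petal 1 and petal 2) were chosen by their labels out of 12 libraries of 6 tissues. The labels give bud, petal and labellum (the lip of the orchid flower) from 2-year seedlings and root, stem and leaf from 1-year seedlings, so seedling age does not separate the tissues compared here. All libraries carry the same genotype label and came from greenhouse plants. The organism label is D. nobile, while the series' design text names D. officinale. The labels give neither the kind of bud nor the stage of the petals. They also do not tell whether replicate libraries were made from different plants, and the p-values here therefore reflect spread among libraries that could be technical.

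An orchid flower carries sepals, petals and the lip around a column, which bears the pollen and the stigma. A closed flower bud holds young petals together with these other organs, whereas a vegetative bud holds a shoot tip and young leaves. A petal is typically epidermis over ground tissue with little chlorophyll. In bulk tissue a larger share of cells of a type and more RNA per cell cannot be told apart. The deposited identifiers are gene models without gene names or products, so the tissue labels were not checked against marker genes here and no function is given for any model.

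Total read counts were 27307456 and 30450170 for bud and 30860097 and 28355940 for petal. The root libraries were shallower, at 14165136 and 5289212, so levels at or near 0 in root are less certain. Of 31672 models, 17336 had enough counts to be tested. The 2 bud libraries lay much farther apart than the 2 petal libraries. The biological coefficient of variation, the spread between replicates beyond counting noise, was 0.548 in bud and 0.190 in petal over the tested models. Bud libraries differed at least 4-fold for 892 models (5.15%), and petal libraries for 47 (0.271%). Chi-square per degree of freedom was 205 between the bud libraries and 25.1 between the petal libraries. This was computed to look for a library deposited in duplicate and sets the spread against counting noise alone.

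Bud and petal differed in both directions, with larger differences among the models higher in bud. Calls required an adjusted p under 0.05 in edgeR's quasi-likelihood test, with Benjamini-Hochberg adjustment over all tested models, together with a 2-fold difference or more. By this rule 1165 models (6.72% of those tested) were called, 718 higher in bud (4.14%) and 447 lower in bud (2.58%). At least 8-fold changes made up 479 of the higher calls (2.76% of tested models) and 73 of the lower calls (0.421%). Higher calls had a median log2 fold change of 4.37 and lower calls of -1.95, and the median over all tested models was 0.04. In 131 higher calls petal had 0 counts, and the median was the same with these models at their lower bound. No lower call had 0 counts in bud.

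Among the calls, the balance of directions turned with the size of the change. Lower calls outnumbered higher ones between 2-fold and 4-fold (231 against 115) and between 4-fold and 8-fold (143 against 124). Higher calls outnumbered lower ones between 8-fold and 16-fold (89 against 43), between 16-fold and 64-fold (151 against 23) and from 64-fold upwards (239 against 7). Over all tested models, called or not, no such turn was seen. Higher models outnumbered lower ones between 2-fold and 4-fold (1694 against 1248) and between 4-fold and 8-fold (624 against 292). They also did so at each larger size, so the turn lies in which models passed the test. In these counts a model with 0 counts in the lower tissue stands at its lower bound against 3 counts. Regardless of the test, 28.7% of tested models differed at least 2-fold, 18.9% higher and 9.72% lower, and with bounds in place of such fits 283 were at least 64-fold higher and 7 at least 64-fold lower in bud. Each called model had both bud libraries on the same side of both petal libraries. That arrangement is common in these data, since both bud libraries lay above both petal libraries for 30.4% of all tested models and below them for 27.6%. The balance of directions moved with the scaling. When libraries were scaled by their total counts and not by TMM, the median over all tested models shifted from 0.04 to 0.20 in log2 terms. Higher models were then 71.6% of the calls, against 61.6% with TMM. Limma on log2(FPKM + 1), which changes the test and the scale as well as the scaling, gave 71.3%.

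**Figure D1:**
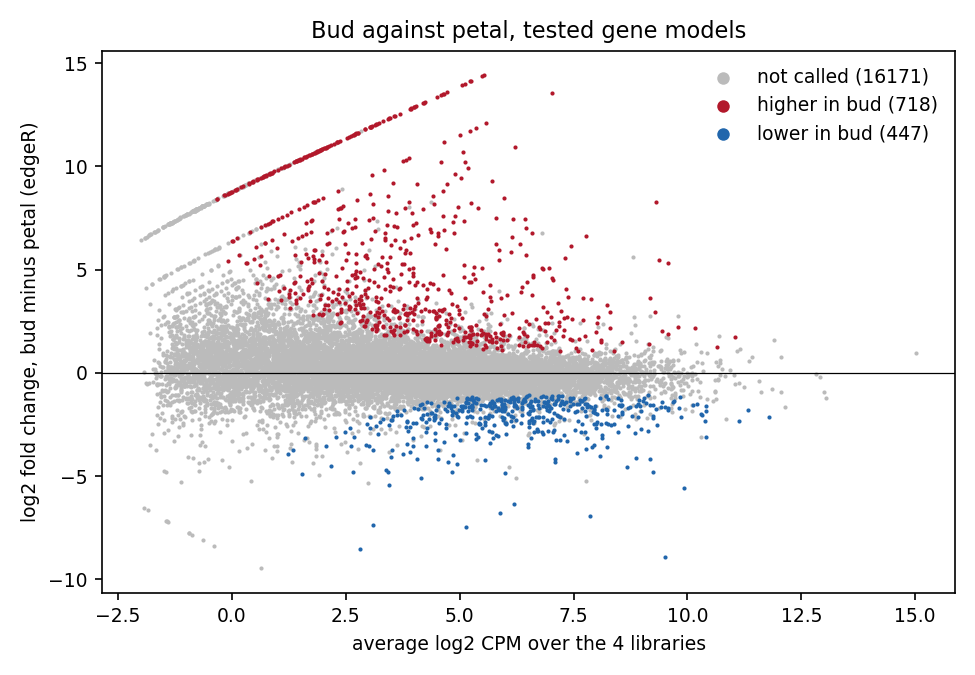
Log2 fold change of bud minus petal from edgeR against the average log2 CPM (counts relative to the library's total) of the 4 libraries, 1 point per tested model. The 718 models called higher in bud reach larger changes than the 447 called lower, and the straight upper line is made of models with 0 counts in petal, whose fitted fold depends on a prior count.

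The models higher in bud and those lower in bud started from different levels. Among the higher calls the median level was 27.3 FPKM (fragments relative to coding length and to the library's total) in bud and 0.790 FPKM in petal, and 371 of them (51.7%) had a petal mean under 1 FPKM. Among the lower calls the median was 110 FPKM in petal and 29.8 FPKM in bud, and 20 of them (4.47%) had a bud mean under 1 FPKM. The median over all tested models was 13.0 FPKM in bud and 10.5 FPKM in petal. Of all tested models 15.8% had a petal mean under 1 FPKM and 9.02% a bud mean under 1 FPKM. The higher calls took 6.36% and 5.44% of counts in the bud libraries and 0.989% and 0.957% in the petal libraries. The lower calls took 3.46% ± 0.392 in bud and 12.2% ± 0.259 in petal (mean ± SD, n = 2 each). These shares follow from how the models were chosen and are given as a description. The same choice favours low levels in the lower tissue.

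The 6 leading models higher in bud had 0 counts in both petal libraries. They are the called models with the largest fitted fold, no overlap between bud and petal libraries and an average log2 CPM of at least 3. Folds are lower bounds against a floor of 3 counts over the 2 petal libraries and cover counting error only. On chromosome 17, evm.model.Chr17.874-gene (coding length 2487 bp) stood at 33.6 and 45.2 FPKM in bud 1 and bud 2 and was at least 1950-fold higher than in petal. Its bud libraries were close, and outside bud its highest level was 0.282 FPKM, in leaf 2. On chromosome 9, evm.model.Chr09.138-gene (750 bp) stood at 158 and 87.0 FPKM in bud and was at least 1780-fold higher. It was at 0.0462 FPKM in labellum 1 and at 0 in labellum 2 and in all root, stem and leaf libraries.

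On chromosome 2, evm.model.Chr02.1169-gene (633 bp) stood at 136 and 78.4 FPKM in bud and was at least 1320-fold higher than in petal. Elsewhere it reached at most 0.444 FPKM, in leaf 1. On chromosome 16, evm.model.Chr16.656-gene (306 bp) stood at 327 and 138 FPKM in bud and was at least 1370-fold higher, a bound of 831 without bud 1 and 1970 without bud 2. Its highest level in another tissue was 0.433 FPKM, in labellum 2.

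In the remaining leading models bud 1 was several times as high as bud 2. On chromosome 3, evm.model.Chr03.709-gene (582 bp) stood at 204 FPKM in bud 1 and 57.6 FPKM in bud 2 and was at least 1460-fold higher than in petal. That bound was 661 without bud 1 and 2350 without bud 2, and the model stayed under 0.1 FPKM in the 8 other libraries. On chromosome 9, evm.model.Chr09.324-gene (606 bp) stood at 209 FPKM in bud 1 and 39.0 FPKM in bud 2 and was at least 1430-fold higher, a bound of 467 without bud 1 and 2500 without bud 2. Labellum 2, at 1.75 FPKM, was its next highest library. Adjusted p values of these 6 models lay between 0.0109 and 0.0371 by the same edgeR test and adjustment, and bounds were between 632 and 1020 when either petal library was left out, where the floor is set against a single library.

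The 6 leading models lower in bud were present in labellum as well as petal and detected at a low level in bud. On chromosome 17, evm.model.Chr17.673-gene (1200 bp) stood at 1130 and 1150 FPKM in the petal libraries and at 0.763 and 4.63 FPKM in bud 1 and bud 2. Labellum had 600 and 664 FPKM, and root, stem and leaf had at most 1.58 FPKM. Its log2 fold change was -8.94 ± 0.95 (SE), or -8.21 without bud 1 and -10.60 without bud 2. On the same chromosome, evm.model.Chr17.702-gene (1401 bp) stood at 373 and 252 FPKM in petal and at 3.37 and 2.16 FPKM in bud, a log2 fold change of -6.95 ± 0.47. It had 177 and 149 FPKM in labellum and at most 0.315 FPKM in root, stem and leaf. Both models are thus models of petal and labellum that were nearly absent elsewhere.

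On chromosome 6, evm.model.Chr06.2196-gene (1758 bp) stood at 43.2 and 32.4 FPKM in petal and at 0.333 and 0.131 FPKM in bud. Its log2 fold change was -7.48 ± 0.59 (SE), or -8.41 without bud 1 and -6.88 without bud 2. It had 24.9 and 23.7 FPKM in labellum and at most 0.523 FPKM in root, stem and leaf. On chromosome 8, evm.model.Chr08.415-gene (261 bp) stood at 57.1 and 65.7 FPKM in petal and at 0.281 and 0.503 FPKM in bud, where it had 6 counts in all, a log2 fold change of -7.38 ± 0.52. Unlike the preceding models it was also present in root, at 10.3 and 25.4 FPKM, and its labellum libraries were apart, at 38.1 and 9.14 FPKM.

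The neighbouring models evm.model.Chr11.835-gene (465 bp) and evm.model.Chr11.836-gene (543 bp) on chromosome 11 were both lower in bud. The first stood at 249 and 343 FPKM in petal and at 4.10 and 4.03 FPKM in bud, with -6.33 ± 0.31 (SE) as its log2 fold change. The second stood at 170 and 239 FPKM in petal and at 1.08 and 3.02 FPKM in bud, a log2 fold change of -6.81 ± 0.54, or -7.61 without bud 2. Both followed the same order in the other tissues, with 39.0 to 74.4 FPKM in labellum, 14.9 to 17.9 FPKM in stem, 5.05 to 11.7 FPKM in leaf and under 1 FPKM in root. How reads that match both neighbours were counted is not given in the sources used here. Adjusted p values of the 6 leading lower models lay between 0.0109 and 0.0172 by the same edgeR test and adjustment.

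**Figure D2:**
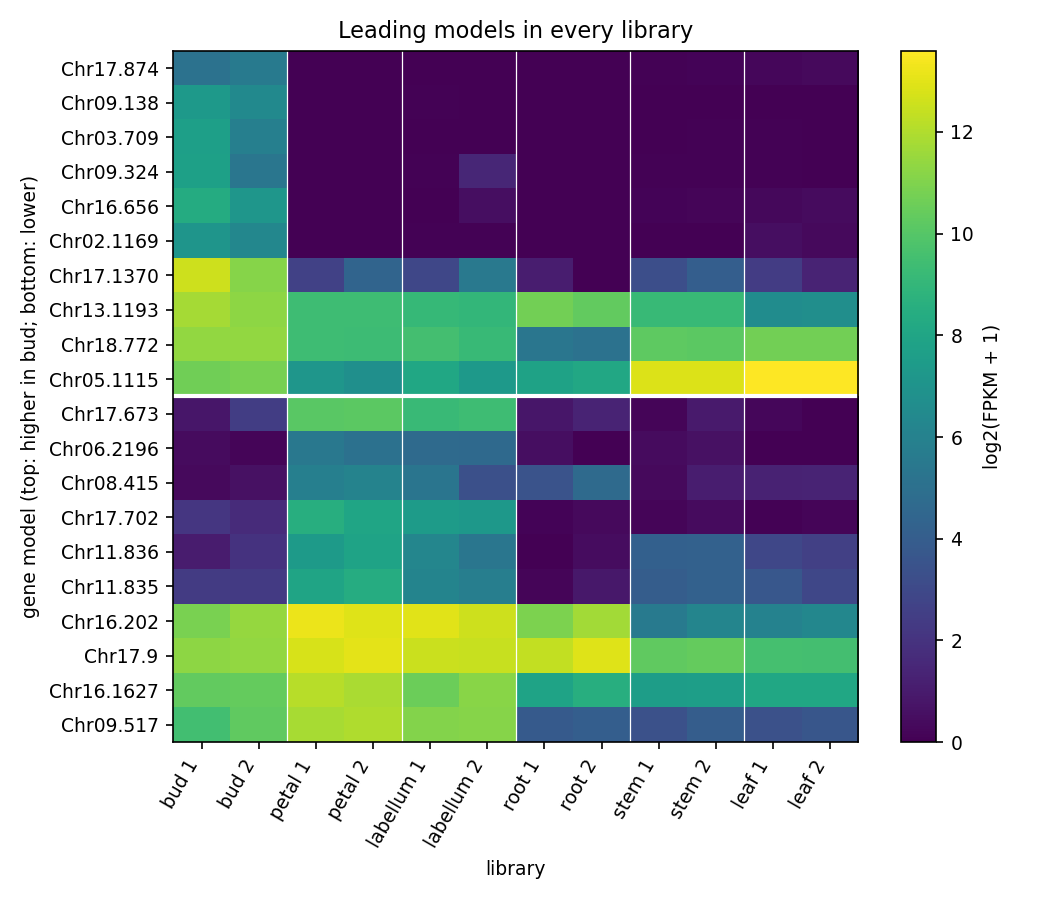
Level of the 20 models with the largest fold or the largest difference in FPKM, as log2(FPKM + 1), in each of the 12 libraries, 2 columns per tissue. The upper 6 models are seen in bud alone at this scale apart from a faint signal in labellum 2, and the models below the white line are high in petal and, at a lower level in most, in labellum.

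Models with the largest difference in level were, with a single exception, abundant in several tissues. The exception was evm.model.Chr17.1370-gene (309 bp, chromosome 17), which stood at 6150 and 2220 FPKM in bud 1 and bud 2 and at 5.24 and 20.0 FPKM in petal. Its log2 fold change was 8.28 ± 1.06 (SE), or 7.21 without bud 1, 8.89 without bud 2, 7.61 without petal 1 and 9.51 without petal 2. The highest level in another tissue was 43.7 FPKM, in labellum 2. On chromosome 13, evm.model.Chr13.1193-gene (384 bp) stood at 3540 and 2500 FPKM in bud and 670 and 671 FPKM in petal, a log2 fold change of 2.04 ± 0.31. Root came next for this model, with 1670 and 1280 FPKM, and leaf was lowest.

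The remaining pair of abundant models was also abundant in leaf and stem. On chromosome 18, evm.model.Chr18.772-gene (462 bp) stood at 2710 and 2730 FPKM in bud and 669 and 645 FPKM in petal, with 1.90 ± 0.21 (SE) as its log2 fold change. Leaf had 1690 and 1670 FPKM of it, stem 1180 and 1170 FPKM, and root 39.0 and 34.4 FPKM. On chromosome 5, evm.model.Chr05.1115-gene (663 bp) stood at 1620 and 1770 FPKM in bud and 139 and 109 FPKM in petal, a log2 fold change of 3.62 ± 0.25. It was far higher in leaf, at 12400 and 12300 FPKM, and in stem, at 7670 and 7620 FPKM, than in bud.

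In the lower direction the largest differences in level belonged to abundant models with log2 fold changes between -2.13 and -1.71. On chromosome 16, evm.model.Chr16.202-gene (225 bp) stood at 9420 and 7860 FPKM in petal and 1860 and 2830 FPKM in bud, with -2.05 ± 0.27 (SE) as its log2 fold change. On chromosome 17, evm.model.Chr17.9-gene (171 bp) stood at 7000 and 8410 FPKM in petal and 2510 and 2720 FPKM in bud, a log2 fold change of -1.71 ± 0.22. Labellum had 8110 and 6110 FPKM of the first and 5870 and 5580 FPKM of the second. Root had 1930 and 3320 FPKM of the first and 5240 and 7870 FPKM of the second. Root thus overlapped bud for the first model and lay above it for the second.

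The other pair was lower in root, stem and leaf than in bud, petal or labellum. On chromosome 16, evm.model.Chr16.1627-gene (480 bp) stood at 4580 and 3790 FPKM in petal and 1270 and 1320 FPKM in bud, with -1.85 ± 0.24 (SE) as its log2 fold change, and at 186 to 365 FPKM in root, stem and leaf. On chromosome 9, evm.model.Chr09.517-gene (1434 bp) stood at 3580 and 3990 FPKM in petal and 715 and 1250 FPKM in bud, a log2 fold change of -2.13 ± 0.31, with 9.42 to 15.7 FPKM in root, stem and leaf. Of these 8 abundant models, 6 were not called when either petal library was left out. By edgeR's quasi-likelihood test with Benjamini-Hochberg adjustment their adjusted p values were 0.0188 to 0.0298 with all 4 libraries, 0.0571 to 0.127 without petal 1 and 0.061 to 0.168 without petal 2. Over all 15 alternatives these adjusted p values ran from 8.8e-11 to 0.168. The calls of evm.model.Chr17.1370-gene (adjusted p 0.023) and evm.model.Chr05.1115-gene (adjusted p 0.0109) passed in all 15 edgeR, DESeq2 and limma alternatives.

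The libraries of labellum, root, stem and leaf did not enter the test and show where else RNA of the called models was found. Of the 718 models higher in bud, bud had the highest mean of the 6 tissues for 511 (71.2%), against 22.2% of all tested models. Leaf was highest for 117 (16.3%), stem for 56 (7.80%), root for 19 (2.65%) and labellum for 15 (2.09%). Over all tested models these shares were 17.4%, 20.3%, 22.2% and 7.91% in the same order, so the leaf share was near its usual one. In the 511 models highest in bud the median was 21.9 FPKM in bud and 0.138 to 0.505 FPKM in the 5 other tissues. Levels under 1 FPKM in labellum, root, stem and leaf alike were found for 232 higher calls (32.3%), against 5.60% of all tested models and 0 of the lower calls. Choosing models high in bud and low in petal favours such shares. Their excess over all tested models is therefore in part built in.

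The 117 models higher in bud and highest in leaf are described by their levels, part of which their selection fixes. Their median was 410 FPKM in leaf, 131 FPKM in stem, 54.4 FPKM in bud, 17.1 FPKM in labellum, 10.2 FPKM in root and 5.88 FPKM in petal. They took 13.4% of leaf counts, 4.66% of stem counts, 1.08% of bud counts and 0.174% of petal counts (means of 2 libraries). The model evm.model.Chr05.1115-gene described above is among them.

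Models lower in bud were shared more widely. Petal had the highest mean of the 6 tissues for 208 of the 447 (46.5%), against 9.99% of all tested models. Root was highest for 127 (28.4%), labellum for 76 (17.0%), and stem and leaf for 18 each (4.03%). Over all tested models root was highest for 22.2%, labellum for 7.91%, stem for 20.3% and leaf for 17.4%. Part of the excess for petal follows from choosing models higher in petal than in bud. In the 127 models highest in root the median was 185 FPKM in root, 75.7 FPKM in petal, 74.5 FPKM in labellum, 27.2 FPKM in bud, 18.7 FPKM in leaf and 17.6 FPKM in stem. They took 5.35% of root counts, 2.13% of petal counts and 0.711% of bud counts (means of 2 libraries).

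Each other tissue was then placed on the bud side or the petal side of the midpoint between bud and petal on the log2(FPKM + 1) scale. Among the higher calls labellum lay on the bud side for 82 models (11.4%), root for 93 (13.0%), leaf for 207 (28.8%) and stem for 237 (33.0%). For all tested models with a higher mean in bud the shares were 36.1%, 42.2%, 51.5% and 57.6% in the same order of tissues. None of the 4 tissues lay on the bud side for 406 of the higher calls (56.5%), against 27.1% of tested models. Among the lower calls labellum lay on the bud side for 86 models (19.2%), root for 246 (55.0%), stem for 362 (81.0%) and leaf for 367 (82.1%). For all tested models with a lower mean in bud they were 33.4%, 44.2%, 47.9% and 52.7%. Among the higher calls each of the 4 tissues was thus on the petal side for most models, root nearly as often as labellum. Choosing models high in bud favours that side. Among the lower calls labellum was like petal for most models, while stem and leaf were low like bud for most. These are descriptions, with no test.

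**Figure D3:**
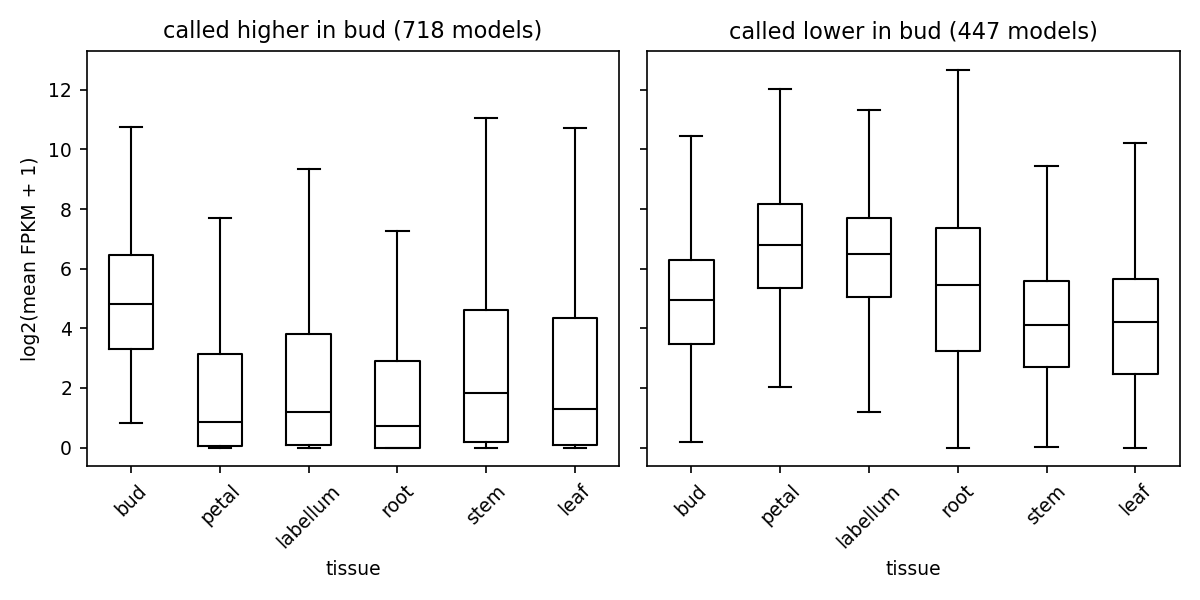
Mean level of the 718 models called higher in bud and the 447 called lower, as log2(mean FPKM + 1), in the 6 tissues, with boxes for quartiles, lines for medians and whiskers to 1.5 times the box (values beyond are not drawn). The higher calls have a median of 27.3 FPKM in bud and 0.633 to 2.53 FPKM in the other tissues, and the lower calls a median of 110 FPKM in petal, 88.3 in labellum, 42.3 in root and 16.3 to 29.8 in bud, stem and leaf.

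Nearly all called models were past 2-fold in both bud libraries. A wide gap between bud libraries adds to the spread that the test uses, so the calls were selected against such gaps. Each bud library was compared with the mean of the petal libraries on the log2(CPM + 0.5) scale. This offset makes ratios smaller for models with low counts, so ratios here can lie below the fitted fold changes. Both bud libraries were at least 2-fold higher for 717 of the 718 higher calls and at least 2-fold lower for 444 of the 447 lower calls. Bud 1 was farther from petal than bud 2 for 510 of the higher calls (71.0%). It was farther for a similar share, 1761 (68.7%), of the 2565 models at least 2-fold higher that were not called. The median log2 ratio of the higher calls was 3.21 in bud 1 and 2.86 in bud 2. Among the lower calls bud 1 was farther for 233 (52.1%), with medians of 1.94 and 1.89 below petal. The share was 56.9% among uncalled models at least 2-fold lower. Bud libraries at least 4-fold apart were found for 15 higher calls, of which 14 were farther in bud 1, and for 0 lower calls. In FPKM without an offset, 11 higher and 4 lower calls had bud libraries at least 4-fold apart, evm.model.Chr17.673-gene and evm.model.Chr10.725-gene among the lower ones.

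Outside the called set many differences were carried by a single bud library. Of the 2565 models at least 2-fold higher in bud that were not called, 1022 were past 2-fold in bud 1 alone and 383 in bud 2 alone, while 994 were past it in both. Of the 1238 models at least 2-fold lower that were not called, 428 were past it in bud 1 alone, 296 in bud 2 alone and 415 in both. Over all tested models, bud 1 and bud 2 were both within 2-fold of petal for 10070 (58.1%). Both were at least 2-fold above petal for 1712 (9.88%) and both at least 2-fold below for 859 (4.96%). Bud 1 was at least 2-fold above and bud 2 at least 2-fold below petal for 150 models (0.865%), and the reverse held for 51 (0.294%).

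**Figure D4:**
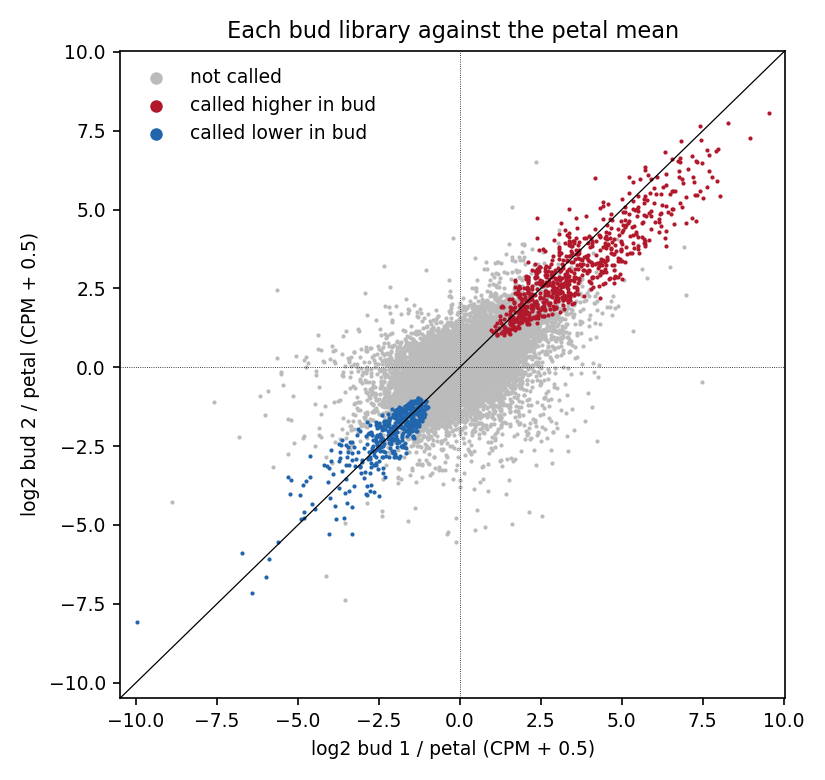
Log2 ratio of bud 1 (horizontal) and bud 2 (vertical) to the petal mean, from CPM + 0.5, 1 point per tested model, with the line of equal ratios. The called models lie along the line, and uncalled models spread away from it into all 4 quadrants. Models at least 2-fold higher in bud lie mostly on the bud 1 side, both called (510 of 718) and uncalled (1761 of 2565).

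Bud 2 was the more petal-like of the bud libraries. Spearman's rho across the tested models was 0.909 between bud 1 and bud 2, 0.905 and 0.901 between bud 2 and the petal libraries, and 0.860 and 0.844 between bud 1 and the petal libraries. Between the petal libraries it was 0.988. Bud 2 also had the higher mean rho with labellum (0.883 against 0.852), stem (0.723 against 0.663), leaf (0.702 against 0.648) and root (0.667 against 0.619). These are correlations across models within libraries, and models are not independent replicates. For 535 models bud 1 was at least 4-fold above bud 2, and petal lay nearer to bud 2 for 347 of them (64.9%). For 357 models bud 2 was at least 4-fold above bud 1, and petal lay nearer to bud 2 for 266 (74.5%). The other tissues were not alike in this. Of the 535 models, labellum lay nearer to bud 2 for 248 (46.4%), leaf for 293 (54.8%), stem for 307 (57.4%) and root for 342 (63.9%), and of the 357 models the shares were 56.3%, 52.4%, 63.3% and 54.3% in the same order.

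Several models show how far a difference can depend on a bud library, taken as those with the largest ratio between bud libraries among the further called models. On chromosome 8, evm.model.Chr08.198-gene (396 bp) stood at 205 FPKM in bud 1, 37.1 FPKM in bud 2 and 0.0818 and 0.0891 FPKM in petal, with 1 count in each petal library. Its ratio of pooled CPM was 1360, with a 95% counting interval of 377 to 11300, and it was 435 without bud 1 and 2400 without bud 2. On chromosome 16, evm.model.Chr16.721-gene (1473 bp) stood at 27.0 FPKM in bud 1, 5.19 FPKM in bud 2 and 0 in petal. It was at least 451-fold higher in bud, or 151-fold without bud 1, 786-fold without bud 2, 216-fold without petal 1 and 235-fold without petal 2. Its adjusted p was 0.044 by edgeR with Benjamini-Hochberg adjustment and ran from 4.01e-06 to 0.0567 over 15 alternatives, the last by limma on log2(FPKM + 1). Bud 1 was above bud 2 in both models.

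The opposite order of bud libraries was found in 2 models named by the same rule. On chromosome 15, evm.model.Chr15.1284-gene (375 bp) stood at 49.5 FPKM in bud 1, 205 FPKM in bud 2 and 1.47 and 1.41 FPKM in petal, with 6.24 ± 0.79 (SE) as its log2 fold change. That fold was 6.87 without bud 1 and 5.03 without bud 2, and labellum had 35.2 and 15.0 FPKM. On chromosome 11, evm.model.Chr11.1302-gene (663 bp) stood at 43.3 and 168 FPKM in bud 1 and bud 2 and 6.99 and 7.93 FPKM in petal, a log2 fold change of 3.61 ± 0.64, or 4.23 without bud 1 and 2.48 without bud 2. It was at 33.7 and 28.6 FPKM in stem. Its adjusted p of 0.0416 (edgeR, Benjamini-Hochberg) was 0.074 and 0.0822 without petal 1 and petal 2, in a range of 5.63e-08 to 0.0822 over 15 alternatives.

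Among the lower calls the same rule gave evm.model.Chr14.181-gene and evm.model.Chr10.725-gene. The first (1128 bp, chromosome 14) stood at 43.4 and 12.5 FPKM in bud 1 and bud 2 and 497 and 360 FPKM in petal, with -4.04 ± 0.74 (SE) as its log2 fold change, or -5.37 without bud 1 and -3.37 without bud 2. The second (1209 bp, chromosome 10) stood at 4.82 and 21.3 FPKM in bud and 179 and 223 FPKM in petal, a log2 fold change of -4.16 ± 0.70, or -3.50 without bud 1 and -5.44 without bud 2. In labellum the first had 156 and 213 FPKM and the second 152 and 113 FPKM.

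Where the mean log2 CPM was 3 or more, the largest changes that missed the threshold were in models of chromosome 9 that were high in bud 1. Models at lower levels were left out of this ranking. Among them, evm.model.Chr13.1263-gene had a fitted log2 fold change of 8.09 and was not called. It stood at 2.28 and 2.05 FPKM in bud and 0 in petal. Of the ranked models, evm.model.Chr09.66-gene (429 bp) stood at 143 FPKM in bud 1, 5.13 FPKM in bud 2 and 0 in petal. It was at least 596-fold higher in bud (43.4-fold without bud 1, 1210-fold without bud 2, 286-fold without petal 1 and 311-fold without petal 2), and its adjusted p was 0.104. The model evm.model.Chr09.599-gene (453 bp) stood at 159 and 20.2 FPKM in bud and 0 and 0.545 FPKM in petal, with an adjusted p of 0.056. The model evm.model.Chr09.1290-gene (534 bp) stood at 98.5 and 10.6 FPKM in bud and 0.0607 and 0.330 FPKM in petal, with an adjusted p of 0.0531. The p values of these 3 chromosome 9 models are from edgeR's quasi-likelihood test with Benjamini-Hochberg adjustment. In each of the 3 the petal libraries lay below both bud libraries.

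The number of calls depended strongly on which libraries set the spread. Without bud 1 the calls were 1878 higher and 1614 lower, and without bud 2 they were 2978 and 2375, because the close petal libraries are then the only pair left to measure spread. Without petal 1 they were 300 and 126, and without petal 2 they were 253 and 88, with the bud pair alone measuring it. All 718 higher calls remained without bud 1 and 717 without bud 2. Of the 447 lower calls 445 and 446 remained. Without petal 1 and petal 2, 286 and 245 of the higher calls remained and 120 and 87 of the lower ones. Since leaving out a bud library raised the number of calls in this way, the calls kept there do not measure dependence on that library. In each of these fits the lone library is assumed to vary like the other group.

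**Figure D5:**
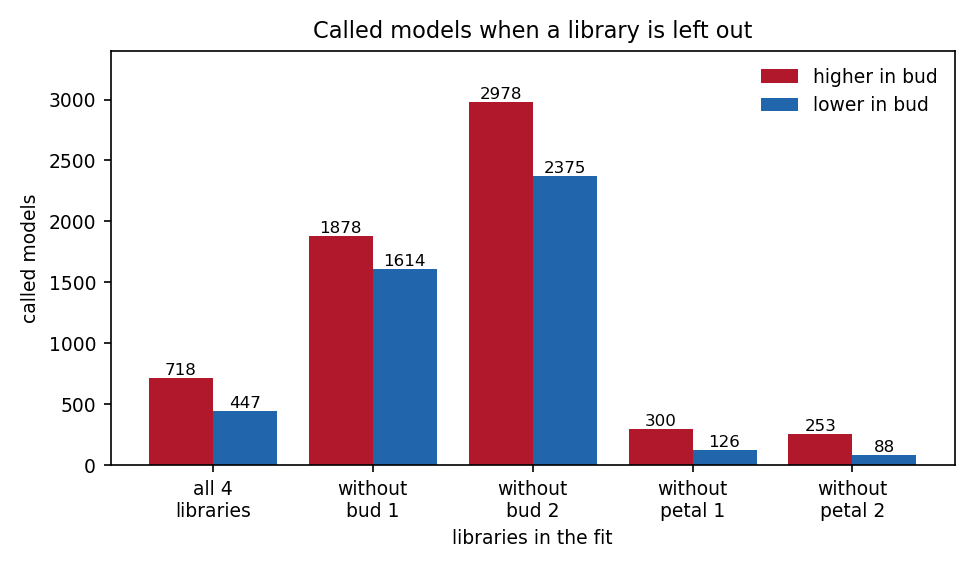
Number of models called higher (red) and lower (blue) in bud with all 4 libraries and with each library left out in turn. Calls go from 718 higher and 447 lower to 2978 and 2375 without bud 2, and to 253 and 88 without petal 2.

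Coding length moved with the difference between bud 1 and petal more than with that between bud 2 and petal. Spearman's rho of the log2 ratio to petal with coding length was -0.131 for bud 1 and -0.0248 for bud 2 across the 17336 models, which are not independent replicates. In the shortest of 5 length classes (153 to 618 bp) the median log2 ratio to petal was 0.23 in bud 1 and 0.09 in bud 2, and in the longest (1923 to 16149 bp) it was -0.20 and 0.03. The share of models called higher went from 5.97% in the shortest class to 2.31% in the longest, while the share called lower was between 2.05% and 3.12% in all classes. Median coding length was 972 bp for the higher calls and 1149 bp for the lower calls and for all tested models. After a length trend was taken out of every library, 722 models were called higher and 487 lower, of which 700 and 432 were among the original calls.

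Some called models of either direction were neighbours by their number along a chromosome. A neighbouring number was also called higher for 66 of the 718 higher calls (9.19%), against 5.30% of all tested models that had such a neighbour. For the lower calls it was 35 of 447 (7.83%), against 3.18%. Runs of at least 3 consecutive numbers numbered 3 among the higher calls and 1 among the lower calls. The longest, on chromosome 9, ran from evm.model.Chr09.140-gene to evm.model.Chr09.143-gene, and evm.model.Chr09.138-gene described above lies just before it. This group was chosen after its values were seen.

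The members of that run differed in level in bud and were low in all other libraries. The model evm.model.Chr09.140-gene (324 bp) stood at 48.0 and 34.0 FPKM in bud, and evm.model.Chr09.141-gene (435 bp) at 66.4 and 80.5 FPKM. Both had 0 counts in petal. The model evm.model.Chr09.142-gene (1689 bp) stood at 2.38 and 4.30 FPKM in bud and 0.0384 and 0.0209 FPKM in petal, and evm.model.Chr09.143-gene (1419 bp) at 9.01 and 3.38 FPKM in bud and 0 in petal. None of these 4 models exceeded 0.517 FPKM in labellum, root, stem or leaf. Models 137 and 139 of this chromosome had no counts in any library. The next models in number, evm.model.Chr09.144-gene and evm.model.Chr09.145-gene, were expressed in petal and were not called, with adjusted p values of 0.0951 and 0.111 (edgeR, Benjamini-Hochberg).

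Other runs lay on chromosomes 13 and 6. Models 1264 to 1266 of chromosome 13 had 0 counts in petal and stood in bud 1 and bud 2 at 2.55 and 3.11 FPKM, 3.36 and 8.43 FPKM, and 65.4 and 24.9 FPKM in order of number. Model 1262 of that chromosome was also called, at 3.06 and 3.77 FPKM in bud and 0 in petal. On chromosome 6, models 2494 and 2495 had 0 FPKM in every library outside bud, where they stood at 5.17 and 2.28 FPKM and at 10.3 and 3.41 FPKM. Model 2496, the third of that run, was at 4.65 and 3.71 FPKM in bud and higher in stem, at 9.19 and 9.60 FPKM. The run among the lower calls, models 1487 to 1489 of chromosome 13, had petal means of 22.2 to 191 FPKM, bud means of 5.04 to 77.1 FPKM and log2 fold changes between -2.29 and -1.48. Each model of a run had a coding length of its own, so no pair of them is a copy of equal length.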

How the data were processed

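The authors deposited read counts per gene model (whole numbers, not normalised) and FPKM values, both for 12 libraries. The deposited FPKM were checked against the counts: dividing by library total and a constant length per model returned 100% of the 224365 values above 0 (tolerance 0.01 bp). Those lengths were multiples of 3 and are called coding lengths. Per the labels' protocols, RNA was column-purified and SMARTER mRNA-Seq libraries were prepared. No source used here gives the aligner, counter, strand handling or annotation, and the builds in the submitters' processing notes (GRCm38, mm10) are of mouse, so near-identical, overlapping and antisense models are uncertain. No genome or annotation was used here.

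Counts of the 4 bud and petal libraries were filtered (filterByExpr, minimum count 10), scaled by TMM and tested with edgeR 4.0.16 in R 4.3.3 (quasi-likelihood, 2 residual degrees of freedom). The fit was restricted to these libraries because bud libraries spread more than those of other tissues. Alternatives used limma 3.58.1, DESeq2 1.42.0 and other settings. A standard error is the log2 fold change over the square root of F, and is approximate at low counts. The test was also run on simulated counts, whose outcome is not given here and lends the calls no support. Named models are, per direction, the 6 largest folds and 4 largest FPKM differences without overlap, then 6 by the ratio between bud libraries (FPKM + 0.1) and the 3 largest uncalled folds. A mean log2 CPM of 3 or more was required except for the FPKM differences. The libraries compared and these rules were chosen with earlier results of these data known.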

Additional observations from a re-analysis of the deposited data

How the results depend on the processing

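In all 15 alternatives more models were called higher than lower in bud, and no call changed sign. With 718 higher and 447 lower calls as reported (479 and 73 of them at least 8-fold), DESeq2's Wald test gave 1802 and 978 (872 and 121), and all 12 libraries in 1 fit gave 1818 and 1094 (822 and 136). Limma-voom with variance weights by tissue called 1244 higher, 747 of them at least 8-fold, limma on log2(FPKM + 0.1) called 1120 higher, and limma on log2(FPKM + 1) called 306 at least 8-fold higher. The cause of these differences was not tested. Leaving out a library gave 253 to 2978 higher, 88 to 2375 lower, 249 to 1113 at least 8-fold higher and 50 to 389 at least 8-fold lower. The other alternatives stayed within 1.5 times of the reported counts. The replicate number as a block gave 876 higher and 588 lower calls; deviations of same-numbered libraries correlated at 0.136 across models, and nothing in the labels ties the numbers to shared plants or days. Of 390 values of the 26 called named models under the alternatives, 374 kept their call and 16 missed the threshold, 14 of these without a petal library. Of the 45 values of the 3 uncalled models, 28 passed it. With an FPKM offset of 0.1 the share of higher calls with no other tissue on the bud side was 52.8% in place of 56.5%. Small changes were the least resolved with 2 libraries per tissue: between 2-fold and 4-fold, 115 of 1694 models higher in bud and 231 of 1248 lower were called.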

Other observations

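Calls were found on all 19 chromosomes. The share of tested models called higher in bud ran from 2.83% on chromosome 12 to 5.19% on chromosome 17, and the share called lower from 0.726% on chromosome 3 to 3.66% on chromosome 13.

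In some models the bud libraries lay on opposite sides of petal, each at least 4-fold away, with bud 1 above in 22 models and bud 2 above in 4. The following examples have the widest gaps among models whose mean log2 CPM reached 3, and were chosen after their values were seen. On the bud 1 side, evm.model.Chr12.675-gene stood at 540 FPKM in bud 1, 2.21 in bud 2 and 106 and 73.0 in petal, and evm.model.Chr16.1017-gene at 191 FPKM in bud 1, 0.766 in bud 2 and 47.1 and 35.8 in petal. On the bud 2 side, evm.model.Chr17.1145-gene stood at 0.165 FPKM in bud 1, 194 in bud 2 and 18.0 and 47.0 in petal, and evm.model.Chr18.1314-gene at 0.740 FPKM in bud 1, 69.6 in bud 2 and 6.62 and 5.03 in petal. None of these 4 models was called, with adjusted p values of 0.457 to 0.751 (edgeR, Benjamini-Hochberg). The first was present in all 12 libraries, whereas evm.model.Chr17.1145-gene was under 1.2 FPKM outside bud and petal.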
